A study of Mus musculus with 9 samples.

Results

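Mesothelial transcripts were examined in endothelial cells (ECs) that had been sorted from whole mouse lungs. The 7 transcripts, Wt1, Msln, Upk3b, Upk1b, Krt19, Gpm6a and Lrrn4, were chosen by gene symbol as markers of the mesothelium and were all found among the 18193 genes of the array. Expression was measured on 9 Affymetrix GeneChip mouse arrays in 3 groups of 3. All mice were of the immunodeficient NSG strain, which lacks mature lymphocytes. Healthy mice received rat IgG as control. The metastatic groups were injected through the tail vein, at 6 to 8 weeks of age, with MDA-MB-231-LM2 cells (a subline of the human breast cancer line MDA-MB-231 that colonises the lung), and received either rat IgG or DC101, a rat antibody against the VEGF receptor VEGFR2. Antibody was given on days 21 and 24 (DC101 at 40 mg/kg), lungs were taken on day 25, and the healthy mice were matched for age. Cells positive for CD31 were kept, and cells positive for CD45, CD11b, EpCAM, CD140a, CD140b or the GFP of the cancer cells were discarded, a panel that holds no marker particular to mesothelium.

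The mesothelium is the single layer of flat cells that covers the surface of the lung and lines the pleural cavity. It makes the pleura slippery, and it carries keratins like an epithelium although it arises from mesoderm. It lies on the lung itself, so whole-lung digests can contain it. Msln encodes mesothelin, a surface glycoprotein, Upk3b and Upk1b encode uroplakins (membrane proteins first known from the bladder lining), and Lrrn4 encodes a leucine-rich repeat membrane protein. Gpm6a encodes a membrane glycoprotein that is also abundant in neurons, and Krt19 encodes a keratin that epithelium shares. Wt1 encodes a zinc finger transcription factor of mesothelium and kidney, which has also been described in ECs of tumours. Arrays are labelled as biological replicates, but it is not said that each came from its own mouse, and p-values therefore cover the spread between these arrays only. In such sorted bulk samples fewer cells of a type and less RNA per cell cannot be told apart.

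The pan-endothelial markers were high in every array, and some markers of discarded cell types were high as well. The mean log2 value of 10 pan-endothelial genes lay between 13.51 and 13.62 in all 9 arrays, while genes had a median of 9.03. Sftpc, a surfactant gene of alveolar epithelium, lay between 11.29 and 13.36, and Col3a1, a collagen gene of fibroblasts, between 12.21 and 13.47. Values of different probe sets do not give the share of each cell type. Over all genes, r between arrays of a group was 0.988 to 0.991 under IgG, healthy or metastatic, and 0.983 to 0.987 under DC101. DC101 replicate 3 had the lowest value of its group for 7614 of the 18193 genes, against 5308 and 5271 for replicates 1 and 2, and values that rest on it are given with and without it. Beside the members stand 7 lists of other genes, of which no list was tested as a whole.

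RefSeq promoter sequences (build GRCm38.p6) were at hand for 3 of the 7 members, Upk3b, Lrrn4 and Gpm6a. Between arrays of a group these correlated with each other with r of 0.58 to 0.88. The 250 bases before the annotated start are shown 5′ to 3′, with capitals for matches, on either strand, to 4 short motifs: GGAATG (bound by TEAD factors), GTGGGNG (a core that WT1 and EGR factors share), GGGCGG (the GC box) and TATAAA (the TATA box). Matches to different motifs did not overlap. Upk3b lies on the plus strand, chr5:136038246-136038495, Lrrn4 on the minus strand, chr2:132880863-132881112, and the first of the 2 listed starts of Gpm6a on the plus strand, chr8:54779184-54779433.
Upk3b: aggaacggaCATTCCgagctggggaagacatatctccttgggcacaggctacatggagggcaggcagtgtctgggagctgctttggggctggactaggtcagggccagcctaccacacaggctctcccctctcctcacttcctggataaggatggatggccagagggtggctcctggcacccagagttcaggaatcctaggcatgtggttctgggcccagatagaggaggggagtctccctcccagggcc
Lrrn4: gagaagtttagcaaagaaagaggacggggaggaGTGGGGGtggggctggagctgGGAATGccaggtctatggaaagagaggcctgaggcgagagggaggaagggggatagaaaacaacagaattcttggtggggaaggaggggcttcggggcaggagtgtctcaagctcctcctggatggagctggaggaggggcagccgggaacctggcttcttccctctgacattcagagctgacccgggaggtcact
Gpm6a: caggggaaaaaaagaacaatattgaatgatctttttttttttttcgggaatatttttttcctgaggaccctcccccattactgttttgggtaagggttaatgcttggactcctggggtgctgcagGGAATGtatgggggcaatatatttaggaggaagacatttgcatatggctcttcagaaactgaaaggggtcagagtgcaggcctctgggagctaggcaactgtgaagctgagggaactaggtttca

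All 3 windows held GGAATG or its reverse complement, with its first base at -241 in Upk3b, -196 in Lrrn4 and -125 in Gpm6a, counted back from the start. Of 32851 promoter windows of the same length, 12.6% held it. Lrrn4 also had GTGGGNG at -217, which 28.1% of all windows held. The GC box (32.7% of all windows) and the TATA box (12.4%) were not among the letters of these 3 windows. The other listed start of Gpm6a held a TATAAA match at -211 and none of the other motifs. The windows of Upk3b and Lrrn4 had 60.8% and 59.2% G and C, that of Gpm6a 44.4%, and the median window 52.4%.

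Most of the 7 transcripts sat below the median of all genes, and Lrrn4 and Wt1 (7.26) under the lower quartile of gene means (7.33). Over the 9 arrays, 1 of 7 members, Gpm6a, had a mean (9.04) above the median of all genes, and the other 6 had means from 7.18 (Lrrn4) to 8.77 (Krt19). Probe sets differ in how strongly they bind, so these values place each probe set on the scale and do not rank the transcripts. On arrays, background signal compresses the changes of dim probe sets.

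Transcripts of the surface proteins that mark mesothelium most closely overlapped between all groups. Msln had log2 values of 7.66, 6.86 and 7.34 in healthy lungs, 7.52, 7.71 and 7.34 in metastatic lungs with IgG and 7.25, 7.23 and 9.27 in metastatic lungs with DC101. DC101 replicate 3 stood 2.02 above the next array of its group, and the other 8 arrays lay between 6.86 and 7.71. Upk3b had log2 values of 9.16, 7.87 and 8.89 in healthy lungs, 8.29, 8.56 and 8.77 in metastatic lungs with IgG and 8.22, 8.39 and 9.81 in metastatic lungs with DC101. Again DC101 replicate 3 was the highest of the 9, by 1.43 over the next array of its group, and the 3 groups overlapped. The second probe set of Upk3b followed the first with r = 0.87 over the 9 arrays, which fall into 3 groups and share their normalization. It changed by -0.25 (metastatic IgG against healthy), 0.25 (DC101 against metastatic IgG) and -0.0044 (DC101 against healthy).

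Lrrn4 had log2 values of 7.98, 6.96 and 6.31 in healthy lungs, 6.46, 7.61 and 6.76 in metastatic lungs with IgG and 6.72, 6.97 and 8.83 in metastatic lungs with DC101. Its highest array was DC101 replicate 3, 1.86 above the next of that group, followed by healthy replicate 1. Upk1b had log2 values of 8.14, 7.13 and 7.46 in healthy lungs, 7.58, 8.11 and 7.60 in metastatic lungs with IgG and 7.58, 8.42 and 8.58 in metastatic lungs with DC101. The groups overlapped, and DC101 replicates 2 and 3 were the highest arrays. The 3 other probe sets of Upk1b correlated with this one with r of 0.75 to 0.83 over the 9 arrays. They differed from it in their changes, with 0.37, 0.80 and 0.36 for metastatic IgG against healthy (0.19 on the one used) and -0.083, -0.029 and 0.12 for DC101 against metastatic IgG (0.43 on the one used).

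Krt19, the keratin, had log2 values of 9.71, 9.56 and 8.44 in healthy lungs, 7.55, 8.89 and 8.04 in metastatic lungs with IgG and 8.36, 9.18 and 9.26 in metastatic lungs with DC101. The healthy arrays were high in replicates 1 and 2, metastatic IgG replicate 1 was the lowest of the 9, and all groups overlapped.

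For Gpm6a and Wt1 the healthy and metastatic arrays were separate on the probe sets used, which are both of a type that can match more than 1 transcript. Gpm6a had log2 values of 9.01, 8.10 and 7.31 in healthy lungs, 9.05, 9.43 and 9.51 in metastatic lungs with IgG and 9.42, 9.25 and 10.34 in metastatic lungs with DC101. Every metastatic array exceeded every healthy one, the closest pair being 9.01 and 9.05, and DC101 replicate 3 was again the highest. The second probe set of Gpm6a, which is not of that type, did not separate the groups. Metastatic IgG replicate 1 was its lowest array (6.55), below the healthy ones (6.67 to 7.21), and metastatic IgG replicate 3 its highest (7.81). It followed the first with r = 0.60, with changes of 0.21 (metastatic IgG against healthy), 0.27 (DC101 against metastatic IgG) and 0.48 (DC101 against healthy). Wt1 had log2 values of 6.97, 6.44 and 6.08 in healthy lungs, 7.40, 7.91 and 6.97 in metastatic lungs with IgG and 7.68, 7.94 and 7.91 in metastatic lungs with DC101. The 6 metastatic arrays lay above the 3 healthy ones (6.966 in healthy replicate 1 and 6.969 in metastatic IgG replicate 3 being the closest), and the DC101 arrays were the least spread. Wt1 was the member in which DC101 replicate 3 was not the highest array of its group.

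**Figure D1:**
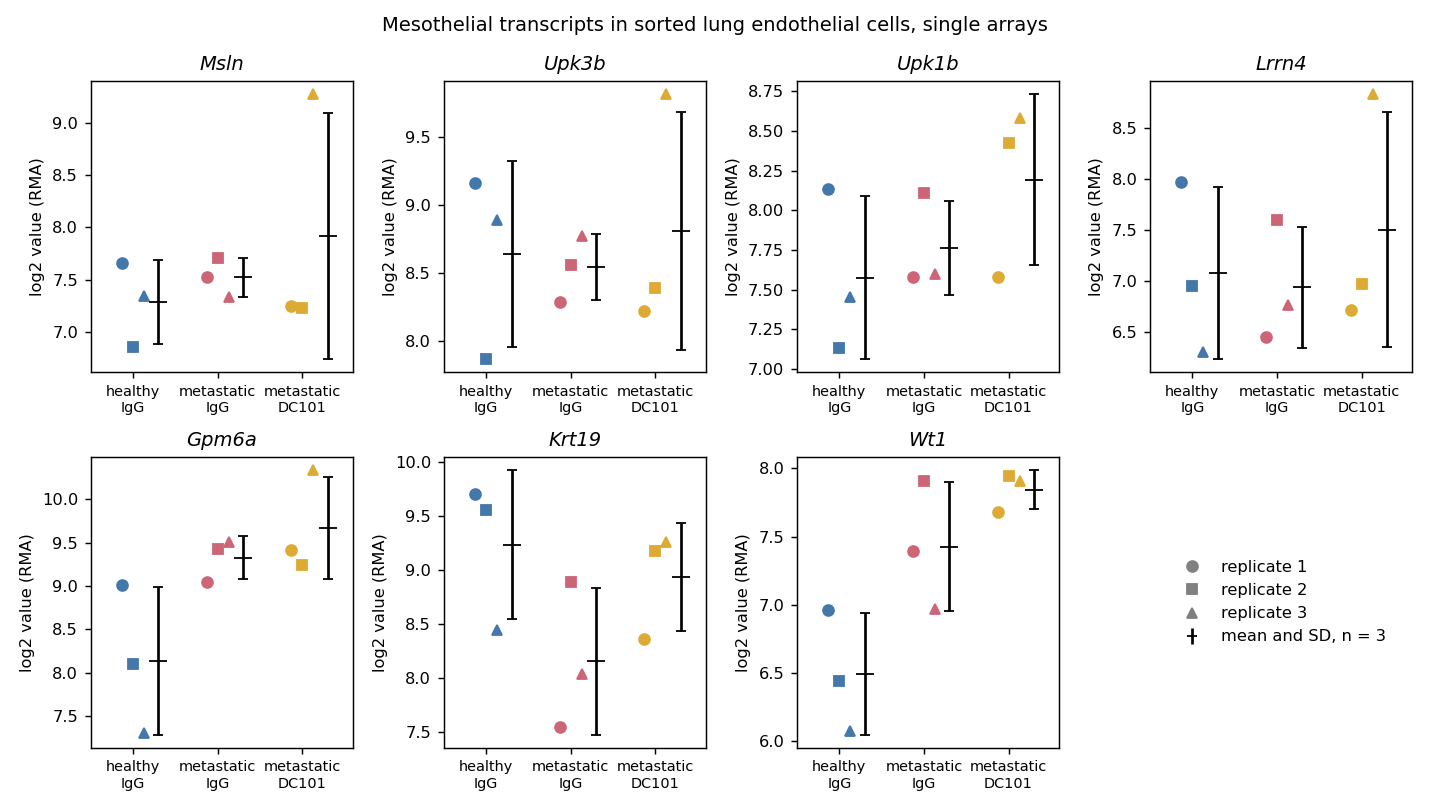
Log2 value (vertical axis, RMA) of each of the 7 mesothelial transcripts, by group. Symbols are single arrays, with the shape giving the replicate number, and black marks give the mean and SD of 3 arrays; DC101 replicate 3 (yellow triangle) is the highest of the 9 arrays for Msln, Upk3b, Upk1b, Lrrn4 and Gpm6a.

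In order of their group means, healthy lungs were lowest and DC101 highest for Wt1, Msln, Upk1b and Gpm6a. For Upk3b and Lrrn4 metastatic lungs with IgG were lowest and DC101 highest. Krt19 was lowest in metastatic lungs with IgG and highest in healthy lungs. Of the neighbours in these orders, healthy and metastatic IgG arrays were separate for Wt1 and, on the probe set used, Gpm6a, and all other neighbours overlapped.

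The first comparison was of metastatic with healthy lungs, both under IgG. Gpm6a and Wt1 were higher and Krt19 lower on average in metastatic lungs, by changes that did not pass the test. Of the 7 members 0 were called, while 6.53% of all genes were, 3.93% higher and 2.6% lower (limma with Benjamini-Hochberg adjustment over 18193 genes, called at an adjusted p under 0.05). Gpm6a stood at 9.33 ± 0.25 against 8.14 ± 0.85 in healthy lungs (SD, n = 3 per group), a log2 change of 1.19 (SE 0.39, limma adjusted p = 0.138). For Wt1 the values were 7.43 ± 0.47 and 6.50 ± 0.45 (SD, n = 3 per group), a change of 0.93 (SE 0.29, limma adjusted p = 0.123). Krt19 stood at 8.16 ± 0.68 against 9.23 ± 0.69 (SD, n = 3 per group), a change of -1.08 (SE 0.43, limma adjusted p = 0.208). These were the 3 members with an unadjusted p under 0.05, which 21.3% of all genes had.

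The other 4 members had changes from -0.14 (Lrrn4) to 0.23 (Msln), with limma adjusted p from 0.582 to 0.903. The 95% interval of the change ran from -0.26 to 0.73 for Msln, from -0.86 to 0.67 for Upk3b, from -0.45 to 0.82 for Upk1b and from -1.21 to 0.93 for Lrrn4. The median change of the 7 members was 0.19, beside -0.024 over all genes. The groups did not overlap for 2 of 7 members, both higher. Of all genes 27.6% did not overlap, 13% higher and 14.7% lower. Without healthy replicate 1, Gpm6a had a change of 1.62 and passed the test (adjusted p = 0.0368), and its adjusted p over 15 alternatives ran from 0.0368 to 0.764. The last was that of the second probe set, with a change of 0.21. In the fit without healthy replicate 1, Upk3b had a change of 0.16 and Lrrn4 of 0.31, so that both turned positive.

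Krt19 is also an epithelial gene, and part of the epithelial markers fell in metastatic lungs. Of 12 lung epithelial genes 6 were called lower and 0 higher (Ager, Cdh1, Cldn18, Sftpa1, Sftpc and Sftpd, with changes from -1.70 to -0.76), against 2.6% of all genes called lower. The mean level of the 12 genes was 9.03 to 9.60 in the healthy arrays and 8.49 to 8.69 in the metastatic IgG arrays. Their part in the value of Krt19 was not tested. Epcam, whose product the sort used to discard epithelium, lay between 7.10 and 7.48 in all 9 arrays. RNA quality was read as the excess of the 3-prime over the 5-prime control probe set. For Gapdh it was 0.692 to 0.766 in healthy arrays and 0.468 to 0.568 with IgG in metastatic lungs. For Actb it was -0.111 to 0.089 and 0.013 to 0.091, so that the groups overlapped on this control. The part of RNA quality in these values was not tested.

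The second comparison asked whether blocking VEGFR2 changed the transcripts in metastatic lungs. On the probe sets used, all 7 members were higher on average with DC101 (2 of the 3 other probe sets of Upk1b were lower), and none passed the test, as none of the 18193 genes did (0% called by limma). Of all 18193 genes 8253 had a positive change. So had 9 of 10 other mesothelial genes, 9 of 10 fibroblast and mural genes, 2 of 5 lymphatic genes and 1 of 6 leukocyte genes. At an unadjusted p under 0.05 none of the members passed either, beside 1209 genes (6.65%). Changes ran from 0.27 (Upk3b) to 0.78 (Krt19, SE 0.37, limma adjusted p = 0.751), with a median of 0.42 beside -0.019 over all genes. Every member overlapped between the groups, where 12.4% of all genes did not (5.4% higher, 6.95% lower). The 95% intervals all included 0 and were wide, from -0.80 to 1.59 for Msln, from -0.74 to 1.87 for Lrrn4 and from -0.12 to 0.95 for Wt1.

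Much of this shift lay in DC101 replicate 3. Without it the median change of the 7 members was 0.00485, and Msln (-0.28), Upk3b (-0.24) and Lrrn4 (-0.10) turned negative. Krt19 (0.61), Wt1 (0.39) and Upk1b (0.24) stayed positive, and Gpm6a stood at 0.00485. None was called in that fit either.

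The third comparison set metastatic lungs with DC101 against healthy lungs, and shares its arrays with both others. Wt1 rose to 7.84 ± 0.14 with DC101 from 6.50 ± 0.45 in healthy lungs (SD, n = 3 per group), a log2 change of 1.35 (SE 0.22, limma adjusted p = 0.0276). Its healthy values lay under the lower quartile of gene means (7.33) and were not shown to be above background, so the change is that of the values and not a measured fold of the transcript. It was the 1 member called of 7, beside 2.42% of all genes (1.58% higher, 0.835% lower). Gpm6a stood at 9.67 ± 0.59 against 8.14 ± 0.85 (SD, n = 3 per group), a change of 1.53 (SE 0.45, limma adjusted p = 0.146), and a change of 0.48 (0.273) on its second probe set. These 2 members had an unadjusted p under 0.05, as had 17% of all genes. Both were higher without overlap on the probe sets used. Of all genes 23.1% did not overlap, 9.44% higher and 13.6% lower. The remaining 5 members had changes from -0.30 (Krt19) to 0.63 (Msln), with limma adjusted p from 0.400 to 0.901. The median change was 0.62, beside -0.036 over all genes, and -0.048 without DC101 replicate 3.

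The call of Wt1 was lost in 5 of 6 fits without 1 array (adjusted p from 0.0610 to 0.0949) and held without healthy replicate 1 (0.0207), while its change stayed between 1.14 and 1.58. It was also lost without moderation of the variance (adjusted p = 0.185). No other probe set was named for Wt1. The Gapdh control difference was 0.354 to 0.598 in the DC101 arrays and 0.692 to 0.766 in the healthy ones, without overlap. That of Actb was 0.004 to 0.138 and -0.111 to 0.089, with overlap. The part of RNA quality in the change of Wt1 was not tested.

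**Figure D2:**
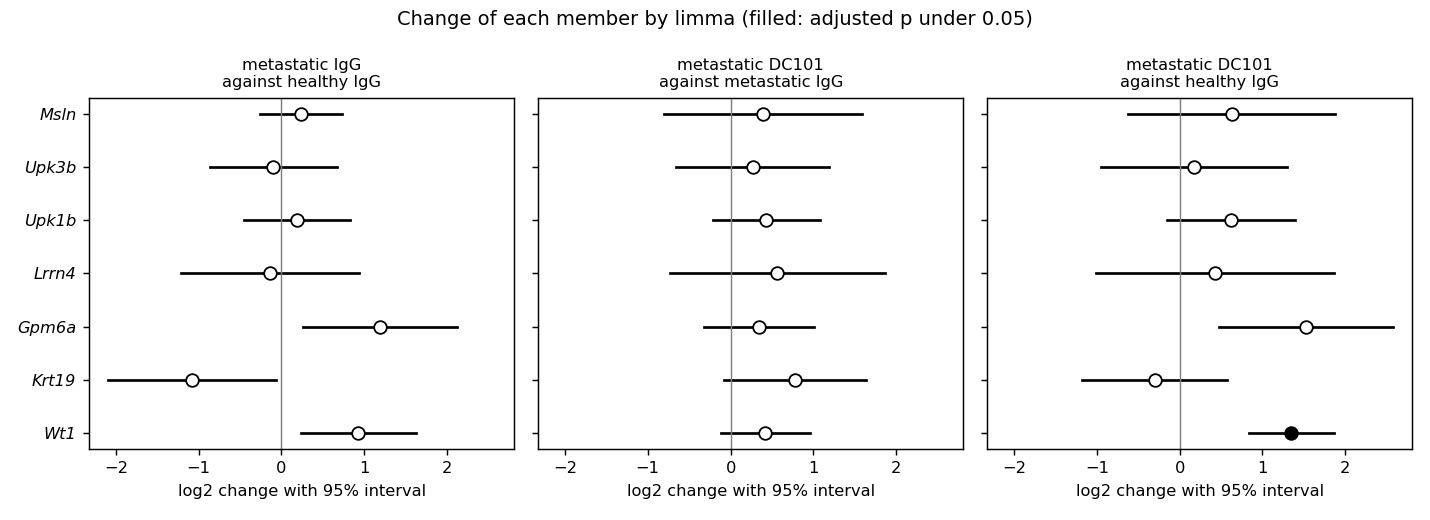
Log2 change (horizontal axis) of each member in the 3 comparisons, with the 95% interval of limma; filled points had an adjusted p under 0.05. Wt1 with DC101 against healthy lungs (log2 change 1.35) is the filled point, and the intervals of Msln, Upk3b, Upk1b and Lrrn4 include 0 in each comparison.

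Within groups the 7 transcripts tended to move in the same direction, some pairs closely and others hardly. After the mean of its group was subtracted from each value, all 21 pairs of members had a positive Pearson r over the 9 arrays, from 0.14 to 0.89 with a median of 0.65. The closest pairs were Msln and Upk3b (0.89), Gpm6a and Lrrn4 (0.88) and Msln and Lrrn4 (0.82). Without DC101 replicate 3 the 21 pairs ran from 0.0058 to 0.87, with a median of 0.62. Lrrn4 followed the mean of the other members most closely (0.97), and Wt1 least (0.60). These are descriptions over arrays that share their normalization.

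Healthy replicate 1 had the highest value of its group for 7 of 7 members, where it was highest for 32.3% of all genes. Metastatic IgG replicate 2 was highest for 5 of 7 members (31.9% of all genes) and DC101 replicate 3 for 6 of 7 (29% of all genes). DC101 replicate 3 was the highest of all 9 arrays for 5 of 7 members, and for 10.6% of all genes. On average over the 7 transcripts, these arrays stood 0.59, 0.36 and 0.73 above the mean of their groups.

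**Figure D3:**
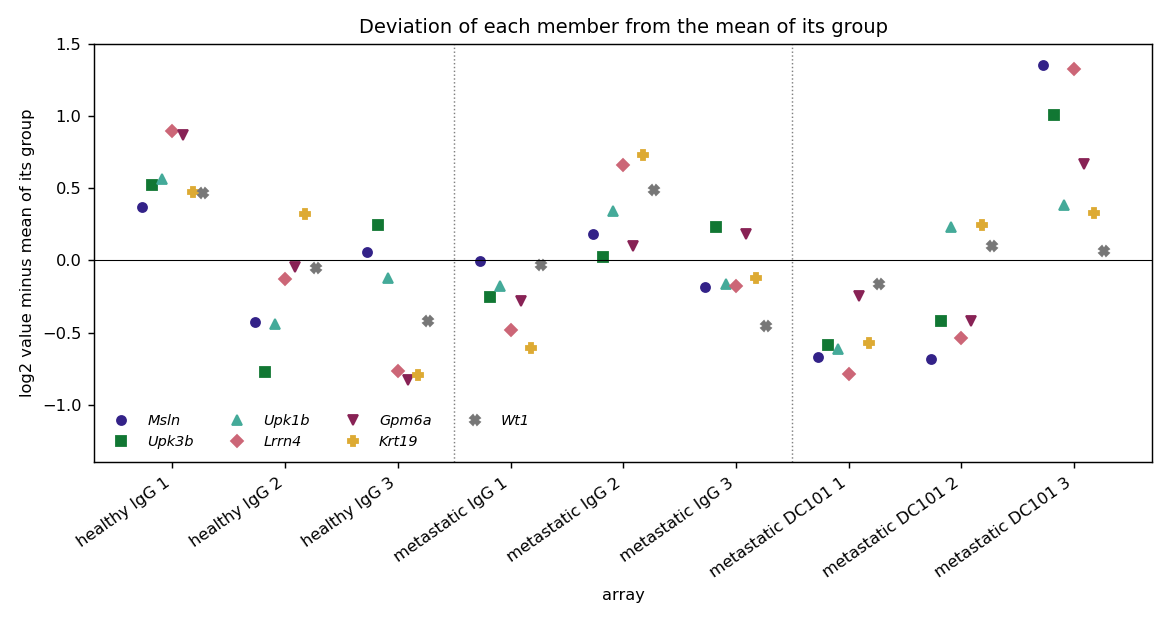
Log2 value minus the mean of its group (vertical axis) for each of the 7 members (symbols) in each of the 9 arrays. Healthy replicate 1 lies above 0 for all 7 members, metastatic IgG replicate 2 for all 7 and DC101 replicate 3 for all 7, with Msln at 1.35 and Lrrn4 at 1.33 in the latter.

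Among the markers of other cells, those of epithelium ran low in DC101 replicate 3, where the members ran high. For the 12 epithelial genes DC101 replicate 3 was the lowest array of its group in 11, and their mean stood 0.51 below the group mean there, with DC101 replicate 2 at 0.52 above. In healthy replicate 1 the epithelial mean was 0.24 below its group, and this array was the lowest of its group for 5 of the 12 genes. Healthy replicate 3, where the mean of the members was lowest, was the lowest for 6 of the 12. The 6 leukocyte genes stood 0.32 below the group mean in DC101 replicate 3 and 0.05 above it in healthy replicate 1. The 10 fibroblast and mural genes stood 0.05 above in DC101 replicate 3, 0.10 below in healthy replicate 1 and 0.24 above in metastatic IgG replicate 2. The 5 lymphatic endothelial genes stood 0.35 above in DC101 replicate 3, 0.20 above in healthy replicate 1 and 0.05 below in metastatic IgG replicate 2. The mean of the 10 pan-endothelial genes stayed within 0.07 of its group mean, while single genes moved further (Kdr from 13.43 to 13.92 under DC101). The Gapdh control difference was lowest of the 9 in DC101 replicate 3 (0.354) and was 0.739 in healthy replicate 1. That of Actb was highest of the 9 in DC101 replicate 3 (0.138) and was 0.007 in healthy replicate 1. The part of these values in those of the members was not tested.

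**Figure D4:**
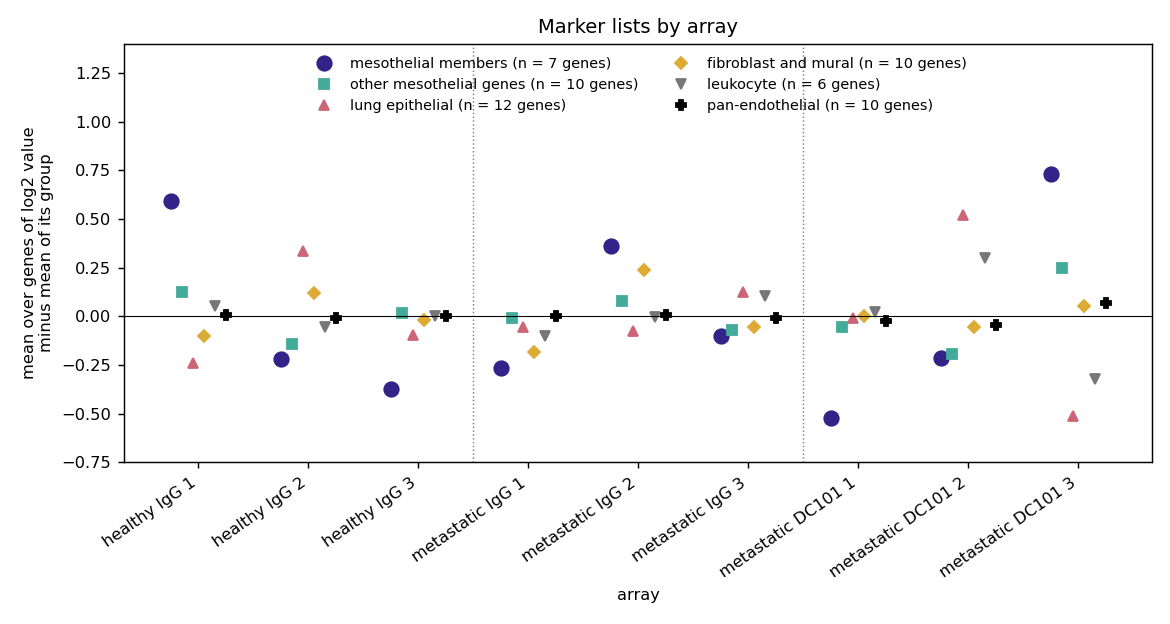
Mean over the genes of a list of the log2 value minus its group mean (vertical axis) in each of the 9 arrays, for the 7 members, 10 other mesothelial genes, and lung epithelial, fibroblast and mural, leukocyte and pan-endothelial markers. In DC101 replicate 3 the members stand at 0.73 and the epithelial genes at -0.51.

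A further 10 genes of mesothelium (Muc16, Bnc1, Rspo1, Aldh1a2, Nkain4, Cldn15, Calb2, Tbx18, Itln1 and Anxa8) gave a weaker picture. The mean of the list stood 0.12, 0.08 and 0.25 above the group means in healthy replicate 1, metastatic IgG replicate 2 and DC101 replicate 3. DC101 replicate 3 was the highest of its group for 7 of the 10 and of all arrays for 5. Group-centred correlation with the mean of the 7 members was highest for Tbx18, a transcription factor of mesothelium (0.82), Muc16, the cell surface mucin CA125 (0.70), and Aldh1a2, an enzyme of retinoic acid synthesis (0.69), and lowest for Anxa8, an annexin (-0.14).

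Aldh1a2 was the gene of this list that was called. Its log2 values were 7.50, 7.35 and 7.65 in healthy lungs, 8.64, 9.21 and 9.01 in metastatic lungs with IgG and 9.13, 8.80 and 10.10 in metastatic lungs with DC101. The 6 metastatic arrays all exceeded the 3 healthy ones. It rose by 1.45 with IgG (SE 0.16, limma adjusted p = 0.00426) and by 1.84 with DC101 (SE 0.31, limma adjusted p = 0.0304), each against healthy lungs. The first call held in 13 of 14 alternatives (adjusted p = 0.0577 without moderation) and the second in 9 of 14. The second was lost without moderation (0.203) and without any 1 of the healthy arrays or DC101 replicate 1. Against IgG in metastatic lungs DC101 gave a change of 0.39 (limma adjusted p = 0.838), and of 0.0075 without DC101 replicate 3. Cldn15, a claudin, had a change of -0.65 with IgG against healthy lungs (limma adjusted p = 0.178), Muc16 had -0.34 (0.196), and Bnc1, the zinc finger protein basonuclin, had 0.77 with DC101 against healthy lungs (0.128) and 0.40 with IgG (0.446). Between DC101 and IgG in metastatic lungs the largest changes were 0.52 for Cldn15 (limma adjusted p = 0.741) and 0.37 for Bnc1 (0.798) beside Aldh1a2, and Rspo1, a secreted enhancer of Wnt signalling, had 0.28 with DC101 against healthy lungs (0.608). The median change of the 10 genes was 0.09, 0.20 and 0.12 in the 3 comparisons.

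Of 9 measured genes that mesothelium shares with epithelium, fibroblasts or lymphatic endothelium, 1 was called, in the first comparison. Of all genes 6.53% were called there. Efemp1, a matrix protein of the fibulin family, fell by 1.07 with IgG in metastatic against healthy lungs (SE 0.18, limma adjusted p = 0.0166), from 8.94, 8.99 and 8.53 to 8.03, 7.52 and 7.69. Its DC101 arrays stood at 8.12, 8.60 and 9.21, a change of 0.90 against IgG (limma adjusted p = 0.737). The call of Efemp1 was lost without healthy replicate 1 or 2 or metastatic IgG replicate 2 or 3, with adjusted p from 0.0501 to 0.0662, and without moderation (0.104). The keratins that pair with each other in simple epithelia, Krt8 and Krt18, had changes of 0.70 (limma adjusted p = 0.0682) and 0.55 (0.297) in the first comparison, opposite in sign to that of Krt19. Pdpn, the podoplanin gene of mesothelium and lymphatic ECs, had a change of 0.67 (limma adjusted p = 0.0932). Igfbp6, an IGF-binding protein, had -0.91 (0.119). With DC101 against healthy lungs Krt8 (0.81, limma adjusted p = 0.0748), Igfbp6 (-0.68, 0.150) and Krt18 (0.65, 0.164) had the largest changes. Against IgG these were, after Efemp1, Krt7, another keratin (0.41, limma adjusted p = 0.761), and Igfbp6 (0.22, 0.885). The median change of the 9 genes was -0.07, 0.18 and 0.07 in the 3 comparisons.

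Of the other lists, 3 of 5 lymphatic genes (Prox1, Mmrn1 and Reln) were called higher with IgG in metastatic against healthy lungs. So were 1 of 10 pan-endothelial genes (Emcn) and 3 of 10 fibroblast and mural genes (Col1a1, Col1a2 and Col3a1). Of all genes 3.93% were called higher and 2.6% lower there. Dcn and Tcf21, of the fibroblast and mural list, were called lower, and none of 6 leukocyte genes was called. With DC101 against healthy lungs 3 of 10 fibroblast and mural genes were called higher, beside 1.58% of all genes. No gene of the lymphatic, pan-endothelial, epithelial and leukocyte lists was called in that comparison.

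By the likeness of their pattern, the 10 genes closest to the members over the 9 group-centred arrays, among 8871 named genes above the median level, were Abcc1, Senp7, Calcrl, Ppp6c, Enpp4, Drap1, Tpm1, Vti1b, Dhx58 and Hspa2, with r of 0.945 to 0.984. None of them belongs to a marker list used here. Genes below the median level were not ranked, so no gene of the other mesothelial list could appear. Over those 8871 genes the middle 95% of r ran from -0.84 to 0.77, so high values are common with so few arrays. Calcrl, an endothelial receptor subunit for adrenomedullin, moved over a small range, from 13.40 to 13.70. Dhx58, an interferon-induced RNA helicase, had 10.31, 9.60 and 9.55 in healthy lungs. All metastatic arrays were higher, at 10.66, 10.79 and 10.71 under IgG and 10.59, 10.60 and 11.34 under DC101. Kdr, which encodes the target of DC101, had a group-centred r of 0.83 with the members, at 13.43, 13.62 and 13.92 in the DC101 arrays. The other pan-endothelial genes had r from -0.49 (Egfl7) to 0.74 (Emcn). Genes of other lists stood near Kdr, such as Ezr (0.84) and Pdgfrb (0.82).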

How the data were processed

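RNA of the sorted ECs was amplified from its 3-prime end by in vitro transcription for Affymetrix mouse arrays. The deposited values are log2 expression values, 1 column per array, which the authors made by robust multiarray averaging (RMA) of the raw files in Chipster. RMA makes the distributions of all arrays alike (medians 8.32 to 8.33), so a change of total RNA cannot be seen, and the table does not itself state its log base. Of 45101 probe sets, 34945 had 1 gene symbol in the platform's table, 932 had several and 9160 had none there; 64 were controls. Symbols were updated through gene IDs (34741 found in RefSeq, GRCm38.p6). For each of 18193 genes the probe set of highest mean value was used, and dim genes were kept.

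Each pair of groups was compared on its own 6 arrays by limma (version 3.58.1, R 4.3.3), with its functions lmFit and eBayes and two-sided tests, after the two-group empirical Bayes test of the study's methods, and p-values were adjusted over all genes. The fit was tested on simulated data. All 7 members were named by rule. Genes of the other lists were named when called, among the largest changes or where a value touched a member. The members and lists were chosen with earlier results of these data known. The alternatives were all arrays in 1 fit, each array left out, the replicate number as a block, no moderation or another prior of the variance, other choices of probe set, bright genes only and centring on pan-endothelial genes.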

Additional observations from a re-analysis of the deposited data

How the results depend on the processing

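No member was called in the first comparison except Gpm6a without healthy replicate 1, and none in the second under any alternative. In the third, the count of members called was 0 with the replicate block, without moderation of the variance, without cross-hybridising probe set types (which drops Wt1 and replaces the probe set of Gpm6a) and with bright genes only (which keeps Gpm6a of the 7), and 0 to 1 with 1 array left out. Leaving out 1 array gave 0 to 1 members called in the first comparison. The first comparison called 1188 genes, 689 with the replicate block and 376 without moderation, and 556 to 759 without 1 array. The third called 440 genes, 662 with all 9 arrays in 1 fit, 247 with the replicate block, 14 without moderation, 273 with the probe set of highest variance and 110 to 361 without 1 array. The second called 0 in every fit. Same-numbered arrays of different groups had deviations that correlated with r of -0.054 to 0.084, and differently numbered ones with r of -0.14 to 0.098. These values cannot show whether same-numbered arrays shared a day of sorting or processing. With the replicate block Wt1 had an adjusted p of 0.0624 (limma) in the third comparison.

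Signs turned only for changes that were not called. With 1 array left out, the first comparison ran from -0.48 to 0.16 for Upk3b, from -0.52 to 0.31 for Lrrn4 and from -0.035 to 0.47 for Upk1b. The second ran from -0.28 to 0.74 for Msln, from -0.24 to 0.56 for Upk3b and from -0.10 to 0.96 for Lrrn4, each lowest without DC101 replicate 3. The third ran from -0.048 to 0.97 for Msln, from -0.33 to 0.46 for Upk3b and from -0.24 to 0.87 for Lrrn4, again lowest without DC101 replicate 3, and from -0.45 to 0.090 for Efemp1. With the probe set of highest variance Upk1b stood at -0.029 in the second comparison and Upk3b at -0.0044 in the third. Without cross-hybridising types Gpm6a had 0.21 (adjusted p = 0.764, limma) in place of 1.19 in the first comparison and 0.48 (0.273) in place of 1.53 in the third. The fits of Aldh1a2 and Efemp1 were chosen after seeing the data. The number of arrays and the signal of the probe sets, below the median of all genes for 6 of 7, limit what could be resolved. The causes were not tested.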
